A study of Homo sapiens with 5 samples.

Results

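The 43 genes described here act in DNA replication and S phase. They were chosen by name, with earlier results of these data known, so their shares beside those of all genes are descriptive. Each is found by the Ensembl ID of its current symbol, and all 43 are among the 19936 genes listed for each library. LX-2 is an established human cell line derived from hepatic stellate cells, the liver cells that make scar matrix once activated. Its cells carried either siRNA against LIX1L, which encodes an RNA-binding protein (siLIX1L, 3 libraries), or control siRNA (siControl, 2 libraries), and total RNA was taken 48 h after transfection and sequenced. The labels give no genotype change, batch, number or sequence of siRNAs, and do not tie the libraries to separate cultures. The p-values below therefore rest on the scatter among 5 libraries, part or all of which may be technical. The comparison asks which replication genes were at another level after LIX1L siRNA.

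A chromosome is copied in an ordered series of steps. In G1, the origin recognition complex, CDC6 and CDT1 load a ring of MCM2 to MCM7 at each origin; at the start of S phase, CDC45 and the GINS complex join the ring and turn it into the active helicase. DNA polymerases then copy both strands, held to the template by the sliding clamp PCNA, which the RFC clamp loader opens and closes, while ribonucleotide reductase and thymidine enzymes supply the building blocks. Many of these genes are transcribed in late G1 by E2F factors, which the retinoblastoma protein restrains until cyclin-dependent kinases, among them cyclin D1 and cyclin E complexes, phosphorylate it.

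Many of the replication genes have E2F sites near their starts, so the promoters were scanned for an E2F heptamer, TTCCCGC or one of its variants TTGGCGC or TTGCCGC or TTCGCGC, on both strands, from 250 bases before to 50 bases after each RefSeq start (GRCh38.p14). A window was at hand for 37 of the 43 members, and MCM4, MCM5, GINS4, POLD3, RPA2 and CCNE2 had none. A heptamer lay in a window of 30 of these 37 members, 81.1%, against 15.3% of all 27305 genes with a window, 25.1% of the 10589 of them that were tested below with edgeR, and 46.3% of 67 other genes of the pathway. By window, it was 66.7% of the members' 48 windows against 13.0% of all 35116. The nearest heptamer started within 60 bases of the annotated start in 26 of the 30, with a median position of -13, before the start. The stretches below belong to the 8 members with the largest fold below the controls in mean RPM, and to ORC1 as a member that was level; they read 5′ to 3′ on the gene's own strand, and the capitals mark the heptamer or its reverse complement.
TK1 chr17:78187047-78187075 (minus strand): aagcggtcggcGCGGGAAccaggggctta
RRM2 chr2:10122365-10122393 (plus strand): ggggcccgcgcGCGCCAAggccgccgaga
RFC2 chr7:74254387-74254415 (minus strand): tgcctcgggtgGCGGGAAgaggaggcgcg
PCNA chr20:5126664-5126692 (minus strand): cagcgtcagggGCGGGAAaaggcgtgcgt
CDT1 chr16:88803755-88803783 (plus strand): cgggaaatttgGCGGGAAccgcgcccgcc
CHAF1B chr21:36385379-36385407 (plus strand): gcctgcggcgcGCGGGAAgcggcgcgcgc
E2F1 chr20:33686387-33686415 (minus strand): gcaaaaaggatTTGGCGCgtaaaagtggc
E2F2 chr1:23531257-23531285 (minus strand): cggcacgacgtTTGGCGCtaaaaaaaaaa
ORC1 chr1:52404425-52404453 (minus strand): cacgccgattgGCGCGAAgttttcttttc

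TK1, RFC2, PCNA, CDT1 and CHAF1B shared the core GCGGGAA, whereas RRM2, E2F1 and E2F2 had TTGGCGC or its reverse complement. The capitals began 12 bases before the start in TK1, 5 in RFC2, 59 in PCNA, 23 in CDT1, 2 in CHAF1B, 19 in E2F1, 41 in E2F2 and 192 in RRM2, where the match lay in a window of an upstream start. The 7 members with a window and no heptamer were ORC6, MCM10, CDC45, POLD1, FEN1, CCNE1 and SLBP. A CCAAT box, on either strand, lay in a window of 21 of the 37 members (56.8%; all genes 39.7%), and the cell cycle element called CHR, TTTGAA or TTCGAA, which marks genes of G2 and mitosis, in 2 of 37 (5.41%; all genes 19.5%). These matches are letters in a window; whether a factor bound there was not measured.

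**Figure D1:**
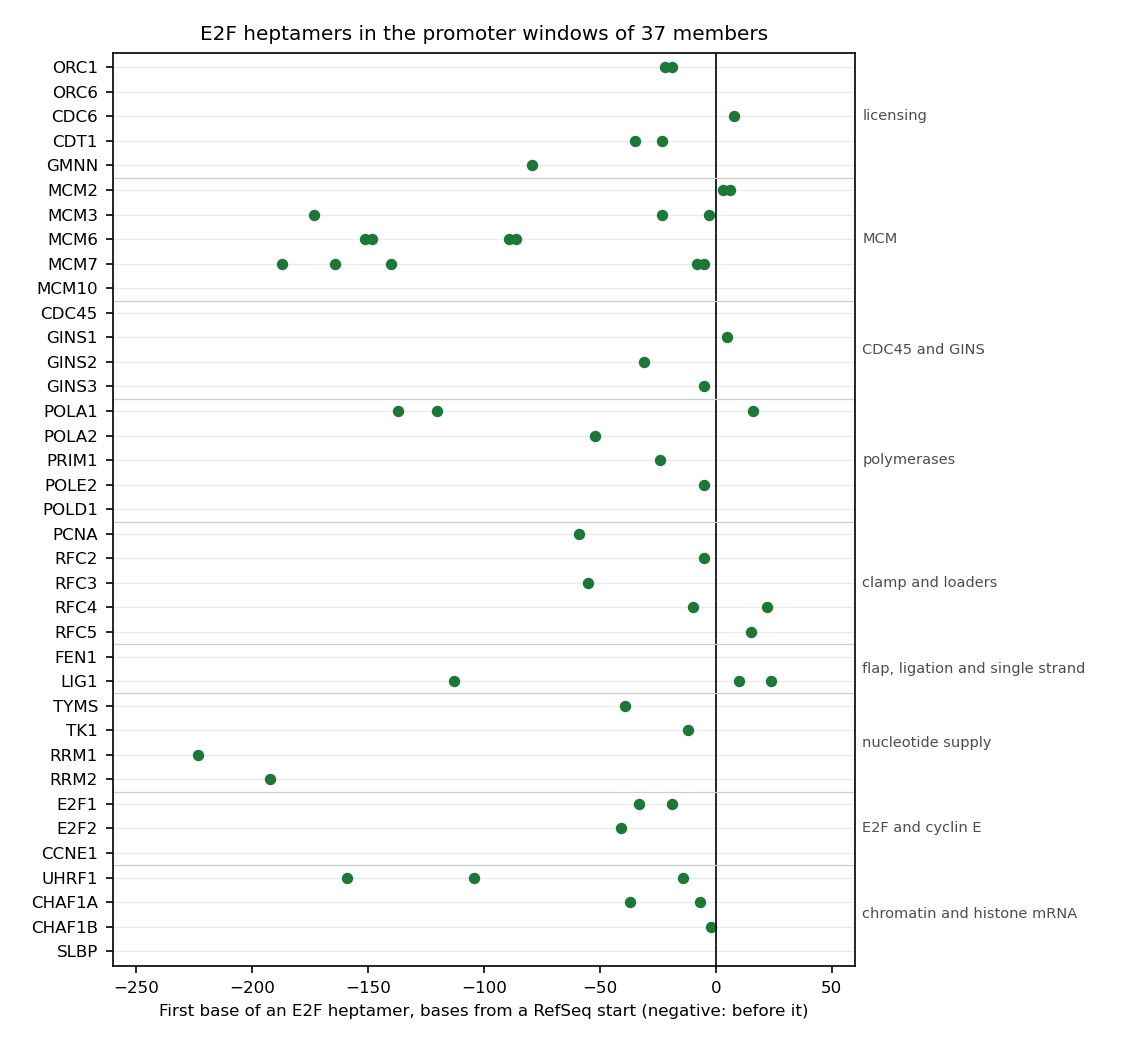
Positions of E2F heptamers (x axis, bases from the annotated start, negative before it) in the promoter windows of 37 members (rows, grouped by complex). Each point is the first base of 1 match, empty rows had none, and in 26 of the 30 members with a match the nearest one lay within 60 bases of the start.

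The libraries held 14856104 to 17811940 counted reads after LIX1L siRNA and 14877647 and 18294056 in the controls, so 1 read was worth 0.0547 to 0.0673 reads per 1000000 (RPM). LIX1L itself, the check of the labels, was at 6.60, 7.08 and 3.65 RPM in siLIX1L 1, 2 and 3, against 26.4 and 35.5 RPM in siControl 1 and 2. It fell 5.36-fold in the means (5.78 ± 1.86 RPM in siLIX1L and 30.9 ± 6.41 RPM in siControl; SD, n = 3 and 2), with a limma adjusted p of 0.0384 (9.46e-09 to 0.230 over the other settings). Of 10 stellate cell or fibroblast markers, 9 were above 1 RPM in every library, with a sum of 4781 to 5545 RPM in siLIX1L and 3206 to 8286 RPM in siControl, while DES was near 0. Hepatocyte markers summed to 1.52 to 3.31 RPM in siLIX1L and 3.23 to 6.45 RPM in siControl (APOB and TTR at 0 in every library), and endothelial markers to 2.96 to 6.75 RPM in siLIX1L and 1.97 to 5.24 RPM in siControl. Epithelial markers summed to 1.06 to 3.31 RPM in siLIX1L and 2.68 to 4.50 RPM in siControl, and leukocyte markers, mostly CD14, to 5.0 to 8.47 RPM in siLIX1L and 10.1 to 36.3 RPM in siControl (CD3E and MS4A1 at 0 in every library). Mitochondrially encoded genes took 1.08 to 1.29% of reads in siLIX1L and 2.24 and 3.35% in siControl. The mitochondrial share and the leukocyte sum moved with the groups, and their part in the results was not tested. The biological coefficient of variation was 6.29% between siLIX1L 1 and 2, against 21.8 and 21.9% between each of them and siLIX1L 3, and 33.3% between siControl 1 and 2.

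Most of the 43 members were at modestly lower levels after LIX1L siRNA, and 1 of them, TK1 (thymidine kinase), passed the test. The 80 other genes of the pathway, described further below, kept a median of 98.3% of their control levels. All 3 siLIX1L libraries were below both controls for 27 of the 43 members (62.8%), against 21.8% of the 13026 genes tested with edgeR, and for no member were all 3 above both controls, against 22.2% of those genes. The groups overlapped for the other 16. The median member kept 70.1% of its control level (range 35.6 to 129%), and the ratio of mean RPM was below 1 for 40 members (the edgeR log2 fold change was below 0 for 52.7% of all genes tested) and above 1 for ORC1, POLD3 and CCNE2. The mean was at least 1.5-fold lower for 20 members (18.0% of all genes tested) and at least 2-fold lower for 5, RFC2, E2F1, E2F2, TK1 and RRM2 (7.48% of all genes tested). In bulk RNA, fewer cells in S phase and less of each mRNA per cell cannot be told apart.

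**Figure D2:**
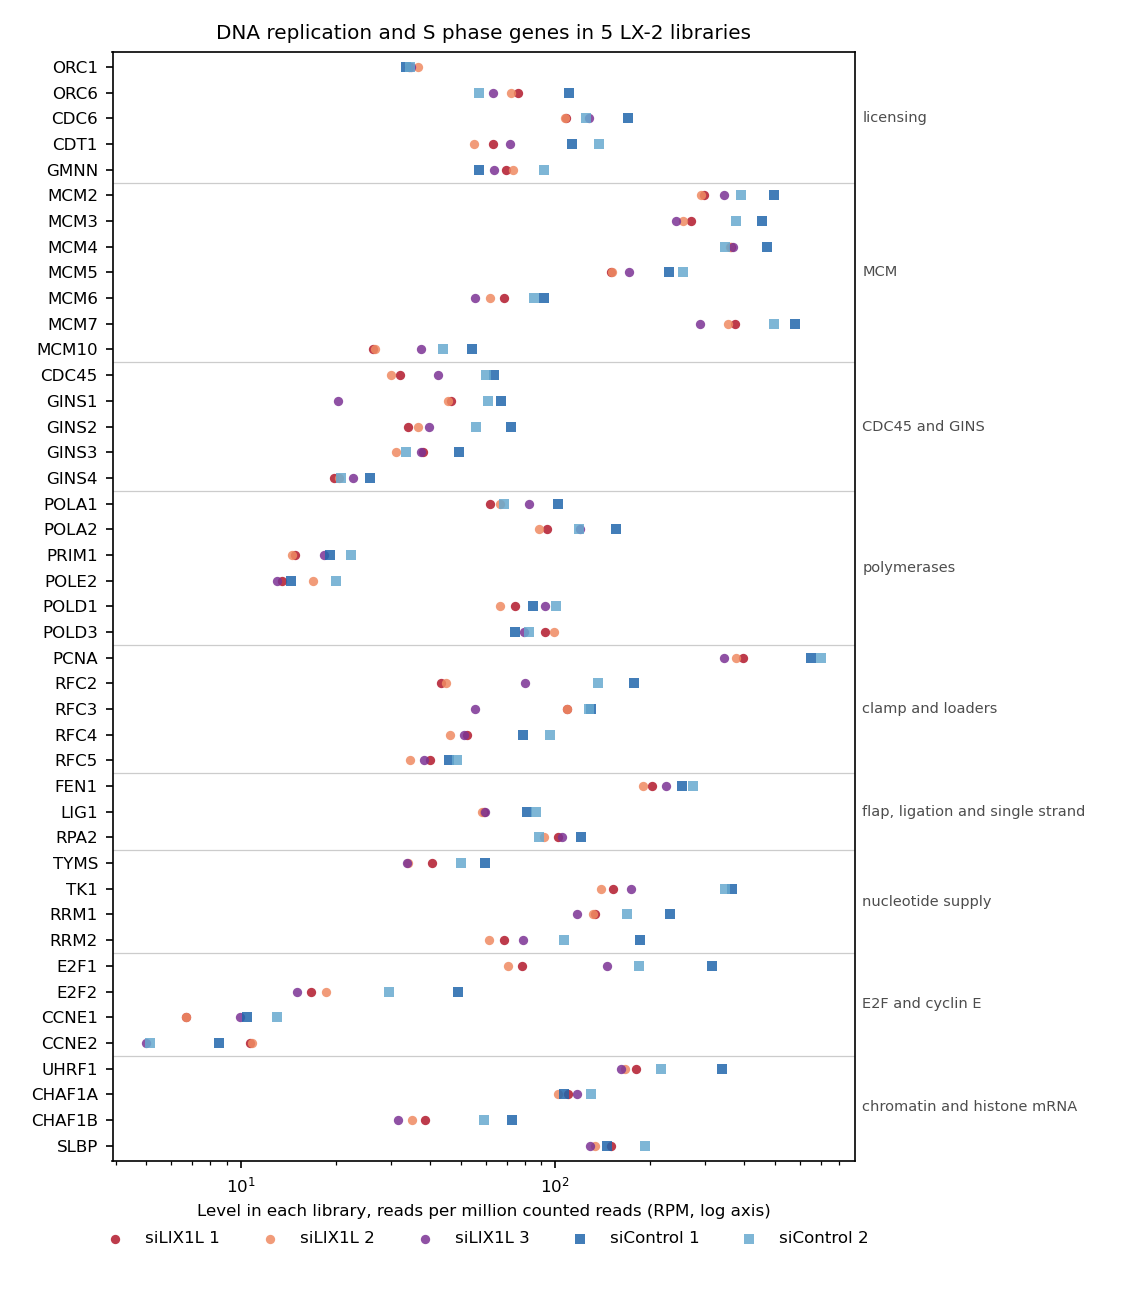
Level of each of the 43 members (rows, grouped by complex) in every library, in RPM on a log axis; each point is 1 library, with the 3 siLIX1L libraries and the 2 siControl libraries in different colours. For 27 members the 3 siLIX1L points lie left of both siControl points, and for none do they lie right of both.

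The test, limma on log2(FPKM + 1) with Benjamini-Hochberg adjustment over the 6464 genes that reached 1 FPKM in 2 or more libraries and a threshold of 0.05, covered 34 members. It found 1 lower and 0 higher, against 1.13% and 0.743% of all genes tested, and at an unadjusted p under 0.05 there were 21 lower (14.0% of all genes tested) and 0 higher (13.6%). The 9 members under the minimum were MCM10, GINS3, POLA1, PRIM1, POLE2, POLD3, RFC3, CCNE1 and CCNE2. FPKM here is per kilobase of gene span, introns included, so a long gene falls under it easily. CCNE1, CCNE2 and PRIM1 are not long, with spans of 12411, 16909 and 20778 bases against a median of 27.026 kb over the genes listed. They were low, averaging 7.76, 8.85 and 15.9 RPM in siLIX1L and 11.7, 6.84 and 20.8 RPM in siControl. EdgeR's quasi-likelihood test on reads recovered from the FPKM covered all 43 and also called TK1 alone lower (0.883% of all genes tested) and none higher (0.560%). Limma on RPM called TK1 lower (0.532% of all genes tested) and 0 members higher (0.477%). EdgeR's median log2 fold change was -0.52 over the members, against -0.04 over all genes. DESeq2, which called 6.24% of all genes lower and 6.34% higher, called 16 members lower and 0 higher. With limma, 9 members were called lower without siControl 1 (13.0% of all 6464 genes tested), 8 without siControl 2 (3.59%), and 0 without siLIX1L 1, 2 or 3, where 0 genes of the whole table were called either (14 to 19 members at an unadjusted p under 0.05). The members' shift was larger than the distance between the controls in 31 of 43 (72.1%; all genes 44.0%).

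**Figure D3:**
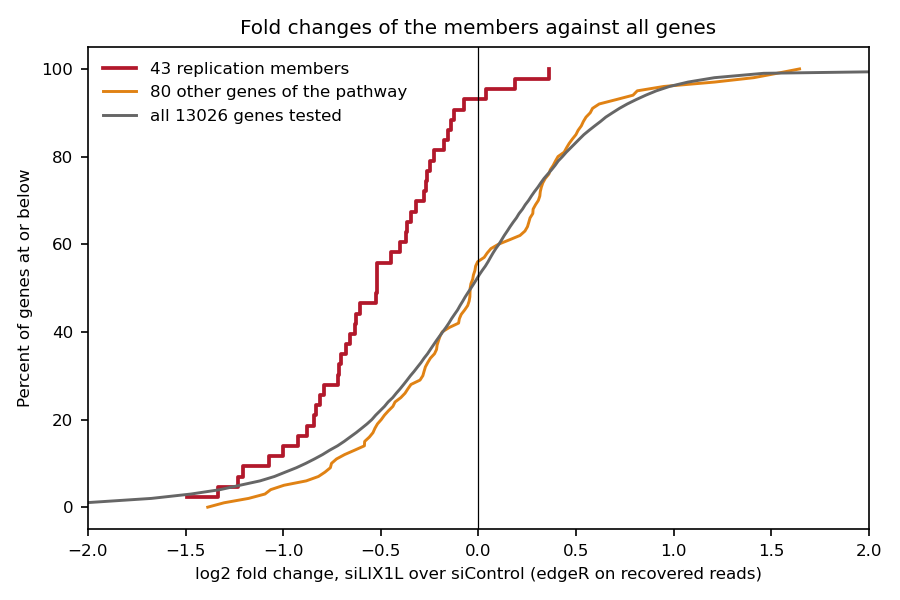
Cumulative percent of genes (y axis) at or below each edgeR log2 fold change, siLIX1L over siControl (x axis), for the 43 members, 80 other genes of the replication pathway and all 13026 genes tested. Over most of its range the members' curve lies left of the others: 25 members lie below -0.44, the 25th percentile of all genes, and 1 above the 75th. At the lowest end all genes reach further left, with a 2nd percentile of -1.68 against -1.49 for the lowest member.

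Of the 5 licensing genes, CDT1 was lower in all siLIX1L libraries (21.8% of all genes tested with edgeR were) and the other 4 overlapped. CDT1, which brings the MCM ring to the origin, had 63.5, 55.2 and 71.5 RPM in siLIX1L 1, 2 and 3, against 113 and 138 RPM in siControl 1 and 2. Both controls were above all 3 siLIX1L libraries. Its mean was 63.4 ± 8.15 RPM in siLIX1L and 125 ± 17.7 RPM in siControl (SD, n = 3 and 2), 1.98-fold lower, with a limma log2 difference of -0.92 (SE 0.18) and an adjusted p of 0.0536, just outside the threshold (0.00295 to 0.278 over the other settings tried). The most abundant licensing gene, CDC6, the ATPase that loads MCM with CDT1, had 108, 108 and 128 RPM in siLIX1L 1, 2 and 3, against 171 and 125 RPM in siControl 1 and 2. SiLIX1L 3 was above siControl 2, so the groups overlapped (limma adjusted p = 0.308). ORC1, the ATPase subunit of the origin recognition complex, was level, with 34.3, 36.6 and 34.6 RPM in siLIX1L against 33.5 and 34.4 RPM in siControl. ORC6 averaged 70.6 ± 6.69 RPM in siLIX1L and 83.9 ± 37.6 RPM in siControl, and GMNN, the geminin that holds CDT1 inactive after S phase begins, 69.0 ± 4.99 RPM in siLIX1L and 74.9 ± 24.8 RPM in siControl. With ORC2 to ORC5 added, the 6 subunits of the origin recognition complex kept between 82.4 and 120.4% of their control levels. In all 3 siLIX1L libraries, none was below both controls (21.8% of all genes tested with edgeR) and 1, ORC3, was above both (22.2%).

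Of the 7 MCM genes, 6 were lower in all 3 siLIX1L libraries (21.8% of all genes tested with edgeR were) and 1, MCM4, overlapped. MCM7, an ATPase subunit of the helicase ring and the highest of the group per kilobase of transcript in both groups of libraries (110.0 RPM per kb in siLIX1L, 174 in siControl), had 374, 355 and 289 RPM in siLIX1L 1, 2 and 3, against 577 and 498 RPM in siControl 1 and 2. The groups did not overlap, and the mean was 1.58-fold lower (limma adjusted p = 0.0989). MCM4, another ring subunit, had 362, 361 and 367 RPM in siLIX1L 1, 2 and 3, against 471 and 346 RPM in siControl 1 and 2. The siLIX1L libraries were all but equal and lay between the controls. Its ratio was above 1 with siControl 1 left out. MCM3 had 269.7, 255 and 241 RPM in siLIX1L 1, 2 and 3, against 456 and 375 RPM in siControl 1 and 2. It was 1.63-fold lower without overlap, and its limma adjusted p, 0.0754, was the smallest of the group (0.0130 to 0.330 over the other settings). MCM5 had 151, 151 and 172 RPM in siLIX1L 1, 2 and 3, against 229.6 and 255 RPM in siControl 1 and 2. MCM2 and MCM6 were each 1.43-fold lower in the means, and MCM10, which joins the helicase as it fires, 1.63-fold. No MCM gene passed the test with limma or edgeR. At an unadjusted limma p under 0.05, 5 were lower (14.0% of all genes tested). DESeq2 called MCM3, MCM5 and MCM7 lower (6.24% of all genes). Per kilobase of transcript, MCM6 was the lowest ring subunit in both groups, at 16.7 RPM per kb in siLIX1L and 23.8 in siControl.

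Among the helicase activators, CDC45, which joins the ring to form the active helicase, had 32.0, 30.1 and 42.5 RPM in siLIX1L 1, 2 and 3, against 63.9 and 60.4 RPM in siControl 1 and 2. The controls were close together and above all siLIX1L libraries, and the mean was 1.78-fold lower (limma log2 difference -0.45, SE 0.11, adjusted p 0.0775). Of the 4 subunits of GINS, the complex that ties CDC45 to the ring, GINS1 (1.71-fold lower) and GINS2 (1.75-fold lower) did not overlap, while GINS3 and GINS4 did. Among all genes tested with edgeR, 21.8% were lower without overlap. GINS1 had 46.7, 45.7 and 20.4 RPM in siLIX1L 1, 2 and 3, against 67.3 and 61.1 RPM in siControl 1 and 2. SiLIX1L 3 stood apart from the other siLIX1L libraries. GINS2 had 34.0, 36.5 and 39.5 RPM in siLIX1L 1, 2 and 3, against 72.4 and 55.9 RPM in siControl 1 and 2. Its siLIX1L libraries were close together, well below both controls (limma adjusted p = 0.0719; 0.0147 to 0.324 over the other settings). GINS3 had 37.8, 31.3 and 37.4 RPM in siLIX1L, against 49.3 and 33.6 RPM in siControl, so siControl 2 lay within the siLIX1L range.

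The polymerase genes kept a median of 83.3% of their control levels, and 5 of the 6 overlapped. POLA2, the regulatory subunit of the polymerase that makes primers with primase, was the highest, with 94.4, 89.0 and 119.9 RPM in siLIX1L 1, 2 and 3, against 156 and 119 RPM in siControl 1 and 2. SiLIX1L 3 and siControl 2 were at the same level. PRIM1, the catalytic primase subunit, was the one member of the group with all siLIX1L libraries below both controls, at 14.8, 14.6 and 18.4 RPM in siLIX1L against 19.2 and 22.5 RPM in siControl. POLA1, POLE2, POLD1 and POLD3, subunits of the polymerases alpha, epsilon and delta, all overlapped, and POLD3, the one with a ratio of mean RPM above 1, averaged 90.4 ± 10.1 RPM in siLIX1L and 78.4 ± 5.76 RPM in siControl. Over 12 subunits of these polymerases and primase, members and others, 2 were lower without overlap and 10 overlapped. The share lower, like that of the 6 polymerase members, was not above the 21.8% of all genes tested with edgeR.

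The clamp and its loaders, 5 members, were all below both controls in every siLIX1L library (21.8% of all genes tested with edgeR were), at a median of 57.0% of control. PCNA, the clamp, had 395, 377 and 344 RPM in siLIX1L 1, 2 and 3, against 652 and 702 RPM in siControl 1 and 2. The gap between the groups was wider than the spread within either. The mean was 372 ± 25.8 RPM in siLIX1L and 677 ± 35.1 RPM in siControl, 1.82-fold lower, with a limma log2 difference of -0.85 (SE 0.17) and an adjusted p of 0.0536 (0.00104 to 0.281 over the other settings). Per kilobase of transcript it was the highest member in both groups, at 274 RPM per kb in siLIX1L and 498 in siControl. RFC2, a small subunit of the loader, had the largest fold of all members in mean RPM over the 5 libraries, although E2F1 had the larger limma difference: it was at 43.4, 45.0 and 79.9 RPM in siLIX1L 1, 2 and 3, against 179 and 137 RPM in siControl 1 and 2. SiLIX1L 3 lay above the other siLIX1L libraries and below both controls. The mean was 2.81-fold lower (limma log2 difference -1.21, SE 0.23, adjusted p 0.0536; 0.000740 to 0.250 over the other settings). RFC4, another small subunit, had 52.5, 46.1 and 51.2 RPM in siLIX1L 1, 2 and 3, against 79.0 and 96.3 RPM in siControl 1 and 2. It was 1.76-fold lower without overlap (limma adjusted p = 0.0641; 0.0105 to 0.323 over the other settings), and the remaining small subunits RFC3 and RFC5 were 1.41 and 1.26-fold lower in the means. The large subunit RFC1, not a member, overlapped, at 171 ± 22.0 RPM in siLIX1L and 197 ± 22.2 RPM in siControl.

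Of the genes that finish the lagging strand, FEN1, the nuclease that trims flaps from Okazaki fragments, had 204, 191 and 224 RPM in siLIX1L 1, 2 and 3, against 253 and 274 RPM in siControl 1 and 2. LIG1, the ligase that joins the fragments, had 59.5, 58.3 and 59.6 RPM in siLIX1L against 81.1 and 87.0 RPM in siControl. Neither overlapped (21.8% of all genes tested with edgeR were lower without overlap), and neither passed the test with limma (adjusted p 0.243 for FEN1 and 0.131 for LIG1). RPA2, a subunit of the protein that coats unwound DNA, averaged 99.7 ± 6.89 RPM in siLIX1L and 105 ± 22.6 RPM in siControl and overlapped.

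All 4 genes of nucleotide supply were at least 1.5-fold lower, at a median of 55.7% of control, and none overlapped. Among all genes tested with edgeR, 18.0% were at least 1.5-fold lower and 21.8% lower without overlap. TK1, the salvage kinase that phosphorylates thymidine and peaks in S phase (chr17:78174075-78187233, minus strand, GENCODE 29 on GRCh38), had 153, 139 and 174 RPM in siLIX1L 1, 2 and 3, against 365 and 346 RPM in siControl 1 and 2. The controls were close together and well above the highest siLIX1L library. TK1 fell to 155 ± 17.6 RPM in siLIX1L, against 355 ± 13.7 RPM in siControl (SD, n = 3 and 2), 2.29-fold, with a limma log2 difference of -1.13 (SE 0.17) and an adjusted p of 0.0384; edgeR gave -1.20 and 0.0455. It was past the threshold in 9 of 16 other settings, with adjusted p from 1.41e-05 to 0.231. It was not when any siLIX1L library was left out (0.0759 to 0.231), although its log2 difference stayed between -1.21 and -0.77 in every setting. RRM2, the small subunit of ribonucleotide reductase, made in S phase, had 68.7, 61.5 and 78.8 RPM in siLIX1L 1, 2 and 3, against 186 and 106 RPM in siControl 1 and 2. The controls differed from each other by more than siControl 2 did from siLIX1L 3. The fold was 2.10, and 1.53 without siControl 1 or 2.67 without siControl 2 (limma adjusted p = 0.0850). RRM1, the large subunit of the reductase, was 1.57-fold lower and TYMS, thymidylate synthase, 1.53-fold.

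E2F1 and E2F2, which activate replication genes, were both below their controls, but with controls that lay far apart. E2F1 had 78.3, 70.5 and 146 RPM in siLIX1L 1, 2 and 3, against 314 and 184 RPM in siControl 1 and 2. SiLIX1L 3 was closer to siControl 2 than to the other siLIX1L libraries. The mean was 98.4 ± 41.8 RPM in siLIX1L and 249 ± 91.8 RPM in siControl, 2.53-fold lower, with a limma log2 difference of -1.27 (SE 0.35) and an adjusted p of 0.0910 (0.0113 to 0.328 over the other settings). It was 1.87-fold without siControl 1 and 3.19-fold without siControl 2. E2F2 had 16.8, 18.6 and 15.0 RPM in siLIX1L 1, 2 and 3, against 49.2 and 29.7 RPM in siControl 1 and 2. The siLIX1L libraries were close together and below both controls (2.35-fold lower, 1.77-fold without siControl 1; limma adjusted p = 0.0723). CCNE1 and CCNE2, the cyclins E that drive CDK2 at the start of S phase, were low: CCNE1 averaged 7.76 ± 1.88 RPM in siLIX1L and 11.7 ± 1.83 RPM in siControl, and CCNE2 8.85 ± 3.34 RPM in siLIX1L and 6.84 ± 2.40 RPM in siControl. CCNE1 did not overlap, CCNE2 did, and CCNE2 had the highest ratio of all members.

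The last members assemble chromatin behind the fork. UHRF1, which recruits the maintenance DNA methyltransferase to newly copied DNA, had 181, 166 and 161 RPM in siLIX1L 1, 2 and 3, against 338 and 217 RPM in siControl 1 and 2. The groups did not overlap, and the distance between the controls was wider than that from siControl 2 to siLIX1L 1 (1.64-fold lower; limma adjusted p = 0.129). Of the CAF-1 histone chaperone, the subunit CHAF1B was 1.88-fold lower (35.0 ± 3.57 RPM in siLIX1L and 66.0 ± 9.32 RPM in siControl; limma adjusted p = 0.0621), while its partner CHAF1A overlapped at 109.8 ± 7.30 RPM in siLIX1L and 118 ± 16.6 RPM in siControl. SLBP, which binds the stem loop of histone mRNA, overlapped at 138 ± 11.1 RPM in siLIX1L and 169 ± 32.5 RPM in siControl.

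**Figure D4:**
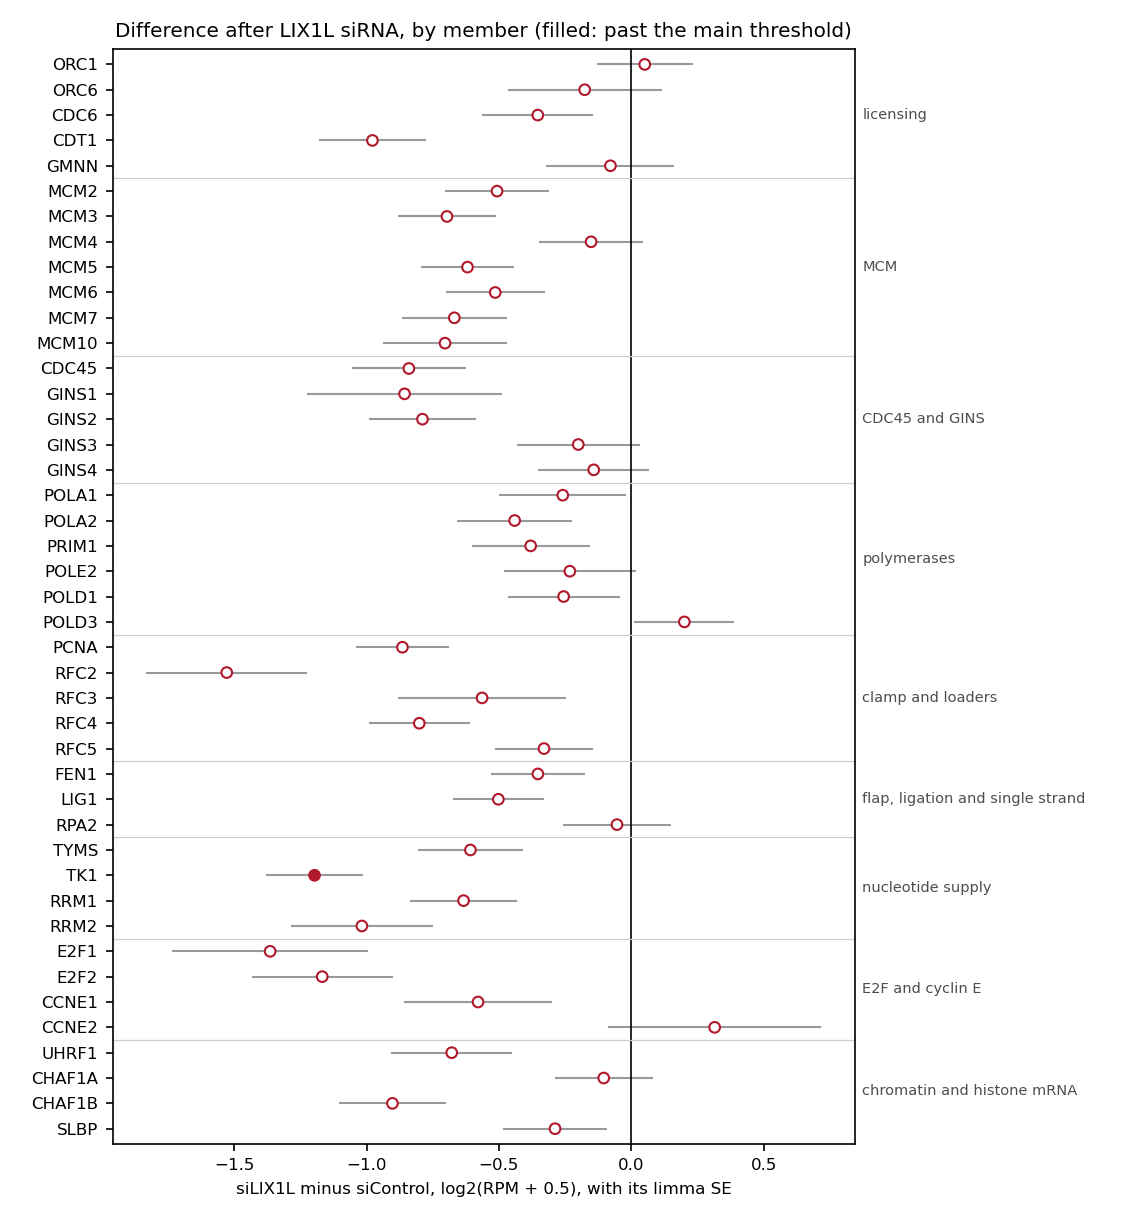
Difference of log2(RPM + 0.5), siLIX1L minus siControl (x axis), for each of the 43 members (rows, grouped by complex), with its limma standard error as a bar. TK1, the filled point, is past the main threshold, and 40 points lie below 0.

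The median absolute difference between siControl 1 and 2 was 0.30 on the log2 RPM scale over the members and 0.44 over all 13026 genes. The median deviation of the members from their own means was -0.18, -0.26 and -0.14 in siLIX1L 1, 2 and 3, against 0.44 and 0.28 in siControl 1 and 2, on the log2(RPM + 0.5) scale. SiControl 1 was above siControl 2 for 27 of 43 members (62.8%; all genes 55.0%). SiLIX1L 3 was above both other siLIX1L libraries for 22 members (51.2%; all genes 37.4%) and below both for 17 (39.5%; all genes 45.9%), with RFC2 and E2F1 high there and GINS1 and RFC3 low.

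**Figure D5:**
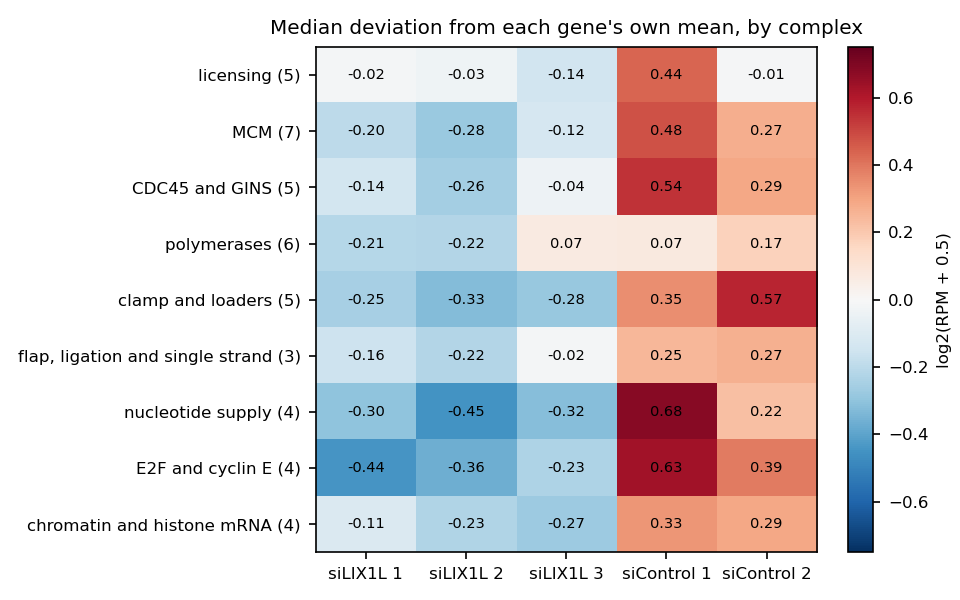
Median deviation of each complex's genes from their own mean over the 5 libraries, log2(RPM + 0.5), in colour (rows, complexes with the number of genes; columns, the 3 siLIX1L libraries and then the 2 siControl libraries). Over all members the medians are -0.18, -0.26 and -0.14 in siLIX1L 1, 2 and 3 and 0.44 and 0.28 in siControl 1 and 2.

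Of 80 other genes of the pathway, in 6 lists, limma tested 60. It found 2 lower, DUT and ASF1B, and 1 higher, SKP2, against 1.13% and 0.743% of all genes tested. Over all 80, the groups did not overlap for 20 lower and 20 higher, near the 21.8 and 22.2% of all genes tested with edgeR. Their median edgeR log2 fold change was -0.04, the same as that of all genes. DUT, the dUTPase that keeps uracil out of DNA, fell 2.59-fold: it had 61.9, 52.1 and 61.9 RPM in siLIX1L 1, 2 and 3, against 151 and 153 RPM in siControl 1 and 2. The controls were nearly equal. Its limma log2 difference was -1.21 (SE 0.15) with an adjusted p of 0.0384 (1.60e-07 to 0.230 over the other settings). ASF1B, a chaperone that hands new histones to CAF-1, fell 2.40-fold, with 60.7, 61.4 and 55.2 RPM in siLIX1L against 129.9 and 154 RPM in siControl. Neither group overlapped the other, and the limma adjusted p was 0.0384 (3.79e-06 to 0.230 over the other settings). SKP2, the F-box protein that marks CDT1 and the inhibitor p27 for destruction, rose 3.18-fold, with 313, 334 and 349.9 RPM in siLIX1L 1, 2 and 3, against 76.9 and 132 RPM in siControl 1 and 2. Every siLIX1L library was above every control (limma adjusted p = 0.0384; 5.06e-06 to 0.230 over the other settings). As with TK1, none of the 3 passed when any siLIX1L library was left out, and neither did LIX1L or CCND1.

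Of 15 E2F, RB and S phase kinase genes, the groups did not overlap for 8 higher and 1 lower, against 22.2 and 21.8% of all genes; 11 were tested with limma and none passed (6 higher and 1 lower at an unadjusted p under 0.05; edgeR called 0 and DESeq2 3 higher). TFDP1, the partner that E2F factors need to bind DNA, had 441, 424 and 444 RPM in siLIX1L against 247 and 194 RPM in siControl (limma adjusted p = 0.0503). E2F7, a repressor of the E2F family, had 205, 237 and 201 RPM in siLIX1L against 125 and 44.3 RPM in siControl (limma adjusted p = 0.0779). RBL2, the pocket protein p130, had 63.0, 71.7 and 50.0 RPM in siLIX1L against 30.2 and 39.1 RPM in siControl (limma adjusted p = 0.113). In all 3 the siLIX1L libraries lay above both controls, whereas for E2F1 and E2F2 they lay below. CCND1, the cyclin D1 that starts the inactivation of the retinoblastoma protein, rose 4.16-fold, at 997, 1046 and 892 RPM in siLIX1L 1, 2 and 3, against 323 and 148 RPM in siControl 1 and 2 (limma log2 difference 2.09, SE 0.32, adjusted p 0.0394; 1.73e-07 to 0.230 over the other settings). The fold was 6.62 without siControl 1 and 3.03 without siControl 2.

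In the remaining lists, 21 other subunits of the same complexes (13 tested) and 18 firing and fork factors (12 tested) had no gene past the limma threshold in either direction; at an unadjusted p under 0.05 there was 1 lower subunit, POLD2 of polymerase delta, and 1 higher firing factor, TOPBP1, and edgeR called none. DESeq2 called 1 firing and fork factor lower, TIPIN, named here after its values were seen. The 10 other nucleotide genes (9 tested) held DUT, and SAMHD1, which breaks down deoxynucleotides, had 282, 348 and 474 RPM in siLIX1L against 98.8 and 158 RPM in siControl (limma adjusted p = 0.0552). SAMHD1 was above both controls in every siLIX1L library, opposite to TK1, DUT and the reductase genes. The 9 chromatin replication genes (8 tested) held ASF1B, and HELLS, a chromatin remodeller, had 78.3, 80.2 and 84.8 RPM in siLIX1L against 165 and 124 RPM in siControl (limma adjusted p = 0.0811). The 7 genes of CDT1 degradation (all tested) held SKP2, and CDKN1A, the kinase inhibitor p21, which also binds PCNA, had 65.0, 61.8 and 44.5 RPM in siLIX1L against 82.0 and 103 RPM in siControl (limma adjusted p = 0.117).

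Set against the promoter scan, the 30 members with a heptamer had a median edgeR log2 fold change of -0.64 (range -1.49 to 0.038, 29 of 30 below 0) and the 7 with a window and no heptamer -0.37 (range -0.84 to -0.25, 7 of 7 below 0). The ranges overlapped, and the difference was not tested. Outside the members, the medians were -0.05 over 2627 genes with a heptamer and -0.02 over 7925 without. Single members, named after their values were seen, went both ways. ORC1 and CDC6 carried a heptamer and were level or overlapped, while CDC45 and MCM10 had none in their windows and did not overlap. TK1 and RFC2 carried a heptamer and did not overlap, while ORC6 and SLBP had none and overlapped.

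Counting may blur a few members. Whether the counts used strand is not given here, and 24 members share bases with another annotated gene, 10 of them with a protein-coding gene on the opposite strand (TYMS and ENOSF1 share 3255 bases). Pseudogenes named after 7 members, PCNA, RFC3, RFC5, FEN1, RPA2, TYMS and RRM2, could share their reads.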

How the data were processed

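Total RNA of LX-2 cells was sequenced from standard Illumina libraries, per the labels' protocols. The authors deposited FPKM for 19936 human Ensembl genes in every library, and a raw read count and gene length in siLIX1L 3 only, per the file headers. Bowtie 0.12.2 and mm8, a mouse build that does not match the human IDs, are named in the submitters' processing notes. The counting tool, its use of strand and the annotation: not given in the sources used here. The lengths match whole gene spans of GENCODE 29 (GRCh38) for 98.2% of genes found there, so FPKM understates genes with long introns; coordinates are from that annotation.

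FPKM times length gave whole reads for 100% of values (tolerance 0.01 reads), and these recovered counts were equal to the deposited counts of siLIX1L 3 for all 19936 genes. RPM is relative to the recovered totals; FPKM carries no depth of its own. A count of 0 allows 3 reads, 0.164 to 0.202 RPM, which covers counting error only. The siRNA named in the labels sets the groups.

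Log2(FPKM + 1) of the 6464 genes that reached 1 FPKM in 2 or more libraries was tested with limma 3.58.1 in R 4.3.3 (two-sided, robust eBayes with a trend, no covariate); p-values were adjusted by Benjamini-Hochberg over these genes, with 0.05 as the threshold. The log2 scale and its pseudocount understate changes of low genes. The recovered counts were also tested with DESeq2 1.42.0 and with the quasi-likelihood test of edgeR 4.0.16 under TMM, and log2(RPM + 0.5) with limma. Tables, promoter scans and plots were made with Python 3.11.15, numpy 2.4.6 and pandas 2.3.3. On simulated reads with a dispersion of 0.05, limma recovered 53% of 2-fold changes, edgeR 42% and DESeq2 44%, and each recovered 100% of 4-fold changes. The simulation gave all libraries the same dispersion. In the data the biological coefficient of variation was 6.29% between siLIX1L 1 and 2 and 33.3% between the controls, so these shares do not give the power here. Other settings tried were a minimum of 5 FPKM, no minimum level, a pseudocount of 0.1, median-ratio scaling, quantile normalization, averaging siLIX1L 1 and 2, removing a loess trend (span 0.5) over GC content and transcript length, blocking on the replicate number, and leaving out each library.

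The members and gene lists were chosen with earlier results of these data known. All 43 members are named. Values in every library are given for members past the threshold and for the highest of each complex by mean over the 5 libraries, and for others chosen after their values were seen. Of the other lists, genes past the threshold and up to 3 more with the smallest p are named.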

Additional observations from a re-analysis of the deposited data

How the results depend on the processing

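Of the 43 members, 34 were below 0 in each of the 16 other settings that tested them. Among these, MCM10, GINS3, POLA1, PRIM1, POLE2, RFC3 and CCNE1 were under the minimum. They were covered only with no minimum level, limma on RPM, edgeR and DESeq2, and in no setting with a library left out. Against 1 member called lower, 0 were called with no minimum level, with siLIX1L 1 and 2 averaged and after removing the trend over length and GC content (21, 15 and 22 members at an unadjusted p under 0.05; 0 genes of the whole table were called in these settings, against 121), 3 with a minimum of 5 FPKM (CDT1, PCNA and TK1; 3.45% of all genes tested were lower), 3 with quantile normalization (CHAF1B, E2F2 and TK1; 1.92%) and 16 with DESeq2 (6.24%), against 1.13% in the main test. Leaving out 1 library gave 0 to 9 members lower (9 without siControl 1 and 8 without siControl 2); the cause was not tested, and the whole table moved too, to 1650 and 337 calls without a control and 0 without any 1 siLIX1L library. With 1 control left, that control is assumed to vary like the siLIX1L libraries. No member was called higher in any setting. The members' median log2 difference, -0.45, was -0.32 with no minimum level, -0.60 with a minimum of 5 FPKM and -0.60 with a pseudocount of 0.1, all 3 of which alter how far low genes are compressed or which genes are tested, and -0.52 to -0.37 with 1 library left out.

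Of the other pathway genes, 2 were called lower and 1 higher, against 1.13% and 0.743% of all genes tested. With no minimum level, averaging or the trend removed, 0 were called lower and 0 higher, as over the whole table. DESeq2 called 4 lower and 5 higher, against 6.24% and 6.34% of all genes. A minimum of 5 FPKM, a pseudocount of 0.1 and quantile normalization each gave 2 higher. The shares of all genes tested called higher there were 2.21, 1.04 and 1.69%. Without any 1 siLIX1L library, 0 were called lower and 0 higher, again as over the whole table. Leaving out a control raised the number of calls, here and over the whole table. The cause was not tested.

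The labels state no pairing of samples, and only 2 replicate numbers are shared. Same-numbered libraries deviated from their group means with a correlation of -0.12 and -0.10. The 2 controls deviate from their mean as mirror images, so these values cannot show whether the samples were paired. With the replicate number as a block, 2 members were called lower (E2F1 and RFC2) and 1 other pathway gene lower, and 94 genes in all.

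The sign of 7 members, none of them called, turned in some setting: with quantile normalization, ORC1 was at -0.037 and MCM4 at 0.025, and with the trend removed, GMNN at 0.13 and RPA2 at 0.11. With 1 library left out, the log2 difference ranged from -0.59 to 0.26 for ORC6, -0.37 to 0.23 for GMNN, -0.36 to 0.066 for MCM4, -0.18 to 0.0038 for GINS4, -0.23 to 0.14 for RPA2 and -0.18 to 0.028 for CHAF1A. The value above 0 came without siControl 2 for GMNN and CHAF1A and without siControl 1 for the other 4.

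With 2 controls, whose biological coefficient of variation was 33.3%, differences near 1.5-fold lay close to the spread between libraries, and a member that missed the threshold is not shown to be unaltered. The lowest member level, 5.0 RPM for CCNE2 in siLIX1L 3, lay well over the 0.164 to 0.202 RPM that a count of 0 allows.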

Other observations

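The 5 genes whose level over the 5 libraries followed the members' mean most closely, among 9517 other genes, were CIRBP, NEIL3, ABHD12, DUSP15 and CENPH, with Pearson's r from 0.997 to 0.999. This is a description over 5 libraries in 2 groups that share depth and handling, with no test. CIRBP, a cold-inducible RNA-binding protein, was at 63.0, 58.5 and 64.4 RPM in siLIX1L 1, 2 and 3, against 127.9 and 109 RPM in siControl 1 and 2. NEIL3, a DNA glycosylase made in dividing cells, was at 28.0, 27.1 and 29.5 RPM in siLIX1L, against 68.8 and 52.5 RPM in siControl. CENPH, a centromere protein, was at 50.8, 46.9 and 48.3 RPM in siLIX1L, against 102.7 and 80.7 RPM in siControl. All siLIX1L libraries were below both controls in these 3 genes, and also in ABHD12 and DUSP15. The genes were picked for following the members' mean over the same libraries, and that mean was lower in siLIX1L. The separation of the groups comes with this choice and is not a separate result.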
